A study of Mus musculus with 6 samples.

Results

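Integrins are the heterodimeric receptors through which cells hold on to the extracellular matrix. The 10 genes described here encode integrin chains that lie outside the hemidesmosome. They are the α chains Itga2, Itga3, Itga5, Itga8, Itga9 and Itgav and the β chains Itgb1, Itgb5, Itgb6 and Itgb8. They were taken by name among the non-control probes of the array, and the set was proposed with earlier results of these data known. All 10 were found, on 23 of the 56605 probes, and all 10 were among the 22260 genes that were tested. Their symbols all matched the RefSeq gene table of assembly GRCm38.p6.

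The samples were whole ureters of mice on a C57BL/6N background, 2 months old, collected 4 days after unilateral ureteral obstruction, in which the ureter of 1 side is closed so that urine cannot drain. The labels give 3 mice the genotype Col17a1-KO, of which replicate 3 is female and replicates 1 and 2 are male, and 3 male mice the genotype Col17a1-WT. Both groups were obstructed, and no unobstructed ureter was among the samples used here. Total RNA of each mouse was labelled with Cy3 and hybridised to its own 1-colour Agilent array.

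Each integrin is a pair of 1 α and 1 β chain. The β1 chain pairs with α2 to bind collagen, with α3 to bind laminins of the epithelial basement membrane, with α5 to bind fibronectin, with α8 to bind nephronectin and with α9 to bind tenascin-C, among other ligands. The αv chain pairs with β1, β5, β6 or β8, and these receptors recognise an RGD sequence in vitronectin, fibronectin or the latency peptide of TGF-β. Receptors αvβ6 and αvβ8 release active TGF-β from its latent complex. In stratified epithelia α6β4 sits in the hemidesmosome with collagen XVII, the product of Col17a1, whereas α2β1 and α3β1 lie along the sides of basal cells and in focal contacts.

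Probes within coding sequence are shown because several results below rest on the choice of probe within a gene. Short cytoplasmic tails on both chains connect integrins to the cytoskeleton. Capitals mark the codons of the GFFKR motif in the α2 probe and of both NPxY motifs in the common β1 probe. These are the sites at which the α tail begins and at which talin and kindlin bind the β1 tail. In the β1D probe the capitals mark the stop codon, and its first 27 bases, up to that stop, are given. The NPxY motif was not found in the β6 probe, nor the GFFKR motif in the α3 probe, so these 2 carry no capitals.
Itgb1 common: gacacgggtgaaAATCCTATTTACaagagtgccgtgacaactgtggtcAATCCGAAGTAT
Itgb1 beta1D: aactatggacgtaaagctggtctcTGA
Itga2: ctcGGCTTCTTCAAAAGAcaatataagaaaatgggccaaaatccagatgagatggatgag
Itga3: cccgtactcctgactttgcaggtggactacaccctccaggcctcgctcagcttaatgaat
Itgb6: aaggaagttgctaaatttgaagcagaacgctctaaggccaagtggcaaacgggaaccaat
Per the file headers, coordinates refer to mouse build mm9. The common β1 probe lies on the plus strand at chr8:131250081-131255976 and the β1D probe at chr8:131250931-131255949. Both ranges are far longer than a probe of 60 bases, so each crosses an intron. The array's annotation assigns the second to integrin β1D, a splice form known from striated muscle. Its last 27 bases pair with the common β1 probe with 1 mismatch, and the 33 bases before them do not. The α2 probe lies at chr13:115626714-115626773, the α3 probe at chr11:94915485-94917062 and the β6 probe at chr2:60438632-60443247, all on the minus strand, and the α3 and β6 ranges also exceed 60 bases.

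Values are log2 signals minus the 75th percentile of their array, so 0 is that percentile and 1 unit is a doubling of fluorescence. Levels are compared between arrays for 1 probe, never between probes. The arrays had 35482 to 36568 probes well above background, and their correlations across genes ran from 0.977 to 0.993. All listed markers of urothelium, smooth muscle, fibroblasts and endothelium were well above background on each of the 6 arrays. Of 8 kidney tubule and podocyte markers, 4 were measured, and the mean deviation of these from their own averages was -0.44 to -0.38 in KO-labelled ureters, while in WT ureters it was -0.30, 1.89 and -0.35. Lrp2 of that list was well above background on 4 of 6 arrays and had passed the filter through the WT group. Without Lrp2 the list had -0.44, -0.34 and -0.43 in KO-labelled ureters, against -0.54, 2.37 and -0.62 in WT ureters. The targeted gene did not check the labels. Col17a1 had values of 0.50, 0.53 and 0.40 in KO-labelled ureters, against -2.33, -0.80 and -0.39 in WT ureters. The difference of 1.65 ± 0.48 (SE) did not pass (limma, adjusted p = 0.457), and its other probe differed by 1.10. Where in the gene the alteration lies is not stated in the labels, and probes outside it check nothing. The group is therefore called KO-labelled, and each direction below rests on that label.

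None of the 10 integrin genes passed the adjusted threshold of 0.05 in limma, where 0% of all genes tested passed. At an unadjusted p under 0.05 there was 1 integrin gene, Itga3, against 9.06% of all genes (4.35% higher and 4.71% lower in KO-labelled ureters). The groups did not overlap for the same gene alone, against 15.4% of all genes (7.28% higher and 8.13% lower). Of the 10 differences 8 were above 0 and 2 below, with a median of 0.18, where all genes tested had a median near 0 (-0.001) and 49.8% of them lay above 0. Across the 21 member probes tested, 18 differences were above 0 and 3 below, where 48.7% of all probes lay above 0. The 18 include an Itgb8 probe that had passed the filter through the KO-labelled group alone, so its direction is not read. Of these 21, 1 had an unadjusted p under 0.05 against 9.26% of all probes (4.14% higher and 5.12% lower), and none passed after adjustment, as 0% of all probes did. The groups did not overlap at 2 of them, the brightest Itga3 probe above and the β1D probe below, against 15.6% of all probes (7.02% higher and 8.55% lower). The p-values measure the spread between 3 mice a group, and sex differed between the groups by 1 mouse. Smaller amounts of RNA per cell and fewer cells of a type cannot be told apart in whole ureters.

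**Figure D1:**
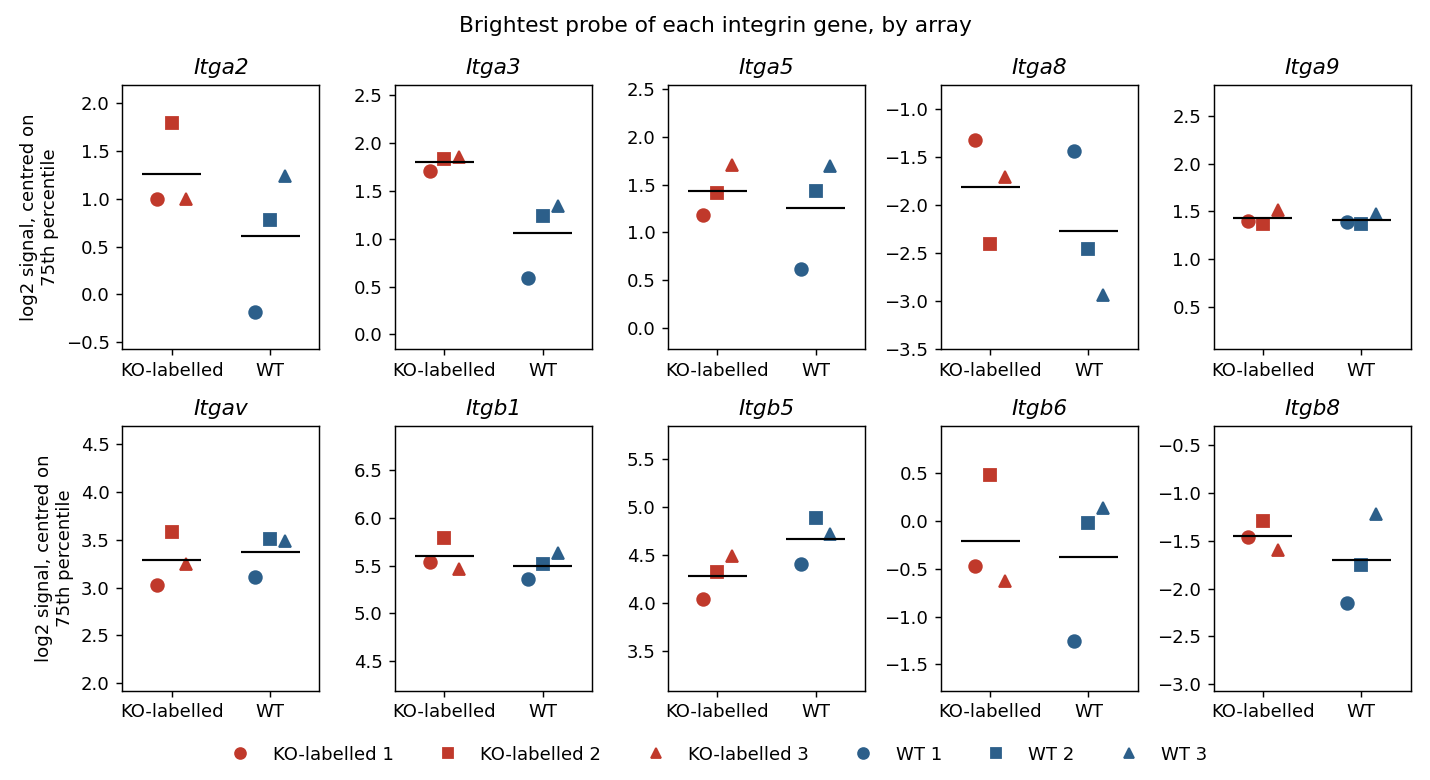
Log2 signal of each integrin gene at its brightest probe (y axis, centred on the 75th percentile of the array) in KO-labelled ureters (left, red) and WT ureters (right, blue); marker shapes give the replicate number and bars the mean of 3 arrays. All panels span the same number of log2 units. The 3 KO-labelled arrays lie above all WT arrays for Itga3 alone, and WT replicate 1 is the lowest array in 6 of the 10 panels.

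Among the β1-paired receptors of collagen and laminin, Itga3 encodes the α chain of the laminin-332 and laminin-511 receptor. At chr11:94905987-94906046 its brightest probe read 1.70, 1.83 and 1.86 in KO-labelled ureters, against 0.59, 1.23 and 1.35 in WT ureters. The KO-labelled arrays lay close together, all above the highest WT array. Itga3 averaged 1.80 ± 0.08 in KO-labelled ureters and 1.06 ± 0.41 in WT ureters (SD, n = 3 each). The difference of 0.74 ± 0.21 (SE) is 1.67-fold with a 95% interval of 1.17 to 2.38, but it did not pass (limma, unadjusted p = 0.0119, adjusted p = 0.457). Without WT replicate 1, the lowest array, it was 0.51, and as the mean of both Itga3 probes it was 0.48. The α3 probe printed above gave another picture, with -2.45, -2.20 and -2.07 in KO-labelled ureters, against -2.46, -2.61 and -2.29 in WT ureters. There the groups overlapped, with a difference of 0.21 (95% interval -0.15 to 0.57). It lies upstream of the brightest probe, and the cause of the unequal differences was not tested.

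Itga2 encodes the α chain of the collagen receptor α2β1. Its brightest probe, at chr13:115623519-115623578, read 0.998, 1.79 and 0.992 in KO-labelled ureters, against -0.18, 0.78 and 1.23 in WT ureters. WT replicate 3 lay above KO-labelled replicates 1 and 3, so the groups overlapped. The difference was 0.65 ± 0.41 (SE), or 1.57-fold, with a 95% interval of -0.33 to 1.63 on the log2 scale (limma, adjusted p = 0.671). The Itga2 difference was 0.25 without WT replicate 1. The tail probe with the GFFKR codons had values of -2.10, -1.33 and -1.86 in KO-labelled ureters, against -3.02, -2.22 and -1.52 in WT ureters. Both Itga2 probes were highest in KO-labelled replicate 2 and lowest in WT replicate 1, and the tail probe differed by 0.49.

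The β1 chain is shared by most of these receptors. Its brightest Itgb1 probe, at chr8:131257001-131257060, read 5.54, 5.79 and 5.47 in KO-labelled ureters, against 5.36, 5.51 and 5.63 in WT ureters. These 6 arrays spanned less than 1 log2 unit and the groups overlapped. The difference of 0.10 ± 0.13 (SE) has a 95% fold interval of 0.85 to 1.34, so a doubling of signal lies outside it. The common tail probe with both NPxY motifs read 3.29, 3.47 and 3.11 in KO-labelled ureters, against 2.72, 2.90 and 3.23 in WT ureters. Its difference of 0.34 had a 95% interval of -0.07 to 0.75, and KO-labelled replicate 3 lay below WT replicate 3.

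The β1D probe was the only member probe whose 3 KO-labelled arrays all lay below the WT arrays, where 8.55% of all probes did so. It read -4.25, -4.29 and -4.22 in KO-labelled ureters, against -4.06, -4.07 and -4.03 in WT ureters. The difference of -0.20 at this Itgb1 probe (95% interval -0.43 to 0.03) did not pass (limma, adjusted p = 0.579). Arrays within a group lay closer together than at the common probe. The β1D probe was dim, though well above background on 6 of 6 arrays. What the close spacing means at so dim a probe was not tested. How much of this signal came from the 27 bases shared with the common β1 transcript was not tested.

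Of the receptors for fibronectin, nephronectin and tenascin-C, none had a difference larger than its replicate spread. Itga5, the fibronectin receptor chain, read 1.18, 1.42 and 1.70 in KO-labelled ureters, against 0.62, 1.44 and 1.70 in WT ureters, at chr15:103175022-103175081. KO-labelled replicates 1 and 2 lay below WT replicates 2 and 3, and WT replicate 1 lay below all others. The difference of 0.18 ± 0.30 (SE) turned to -0.13 without that array. Itga9, a tenascin-C receptor chain, had the smallest difference of the 10 genes. Its probe at chr9:118807900-118807959 read 1.40, 1.37 and 1.51 in KO-labelled ureters, against 1.39, 1.37 and 1.47 in WT ureters. The difference was 0.02 ± 0.10 (SE), with a 95% fold interval of 0.86 to 1.19. A second Itga9 probe, at chr9:118796991-118806400, differed by 0.22 (95% interval -0.18 to 0.61) and was lowest in WT replicate 1.

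Itga8 encodes the nephronectin receptor chain, known in mesenchymal and smooth muscle cells of the urinary tract. At chr2:12028462-12028521 it read -1.32, -2.40 and -1.71 in KO-labelled ureters, against -1.43, -2.46 and -2.94 in WT ureters. Replicate 1 of both groups was high here, unlike in Itga2, Itga3 and Itga5, where WT replicate 1 was the lowest array. The Itga8 difference was 0.47 ± 0.44 (SE), with 0.89 without WT replicate 1, 0.14 without WT replicate 3 and 0.16 with normexp background correction. The other Itga8 probe was above background by that measure on 0 of 6 arrays and was not tested. Npnt, the nephronectin ligand of α8β1, differed by 0.07 ± 0.19 (SE), a value chosen after it was seen.

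The αv chain and its partners read the RGD and latent TGF-β receptors. Itgav at chr2:83646954-83647013 read 3.03, 3.58 and 3.25 in KO-labelled ureters, against 3.11, 3.51 and 3.49 in WT ureters. KO-labelled replicate 2 was the highest and KO-labelled replicate 1 the lowest, so the KO-labelled arrays enclosed the WT arrays. The difference was -0.08 ± 0.19 (SE), and 3 other Itgav probes, assigned to other Ensembl transcripts, differed by 0.11, 0.15 and 0.40. All 3 of these were lowest in WT replicate 1, and none of the 4 probes passed.

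Itgb5 encodes the partner of αv in the vitronectin receptor and was the only gene of the 10 below 0 at every probe it has, which is 1. At chr16:33949123-33949182 it read 4.04, 4.32 and 4.49 in KO-labelled ureters, against 4.41, 4.88 and 4.72 in WT ureters. KO-labelled replicate 3 lay above WT replicate 1, and the other arrays were separated. Itgb5 averaged 4.28 ± 0.22 in KO-labelled ureters and 4.67 ± 0.24 in WT ureters (SD, n = 3 each). The difference of -0.39 ± 0.18 (SE), or 0.77-fold with a 95% interval of 0.57 to 1.03, did not pass (limma, unadjusted p = 0.0684, adjusted p = 0.575). Leaving out each array in turn gave -0.52 to -0.27, so the sign did not turn on 1 array.

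Itgb6, the epithelial β chain that activates TGF-β, varied more within each group than between them. Its brightest probe, the one printed above, read -0.47, 0.48 and -0.63 in KO-labelled ureters, against -1.26, -0.02 and 0.13 in WT ureters. The SD was 0.60 in KO-labelled ureters and 0.76 in WT ureters, against a difference of 0.17 ± 0.46 (SE). Itgb6 turned to -0.27 without WT replicate 1 and to -0.17 without KO-labelled replicate 2. Its other probe, at chr2:60492788-60492847, read -3.09, -2.13 and -3.66 in KO-labelled ureters, against -4.25, -3.28 and -2.81 in WT ureters. The order of the arrays was nearly the same at both Itgb6 probes, with KO-labelled replicate 2 highest and WT replicate 1 lowest.

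Itgb8 encodes the αv partner that presents latent TGF-β. Its brightest probe, at chr12:120426719-120426778, read -1.46, -1.30 and -1.59 in KO-labelled ureters, against -2.15, -1.75 and -1.22 in WT ureters. WT replicate 3 was the highest array and WT replicate 1 the lowest, so the WT arrays enclosed the KO-labelled ones. The difference was 0.26 ± 0.24 (SE), and 0.03 without WT replicate 1. Another Itgb8 probe well above background on all arrays differed by 0.02. A dimmer one was well above background on 5 of 6 arrays, with WT replicate 1 at -6.67. It had passed the filter through the KO-labelled group alone, so its difference is not read. The remaining Itgb8 probe was well above background on 2 arrays only and was not tested.

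**Figure D2:**
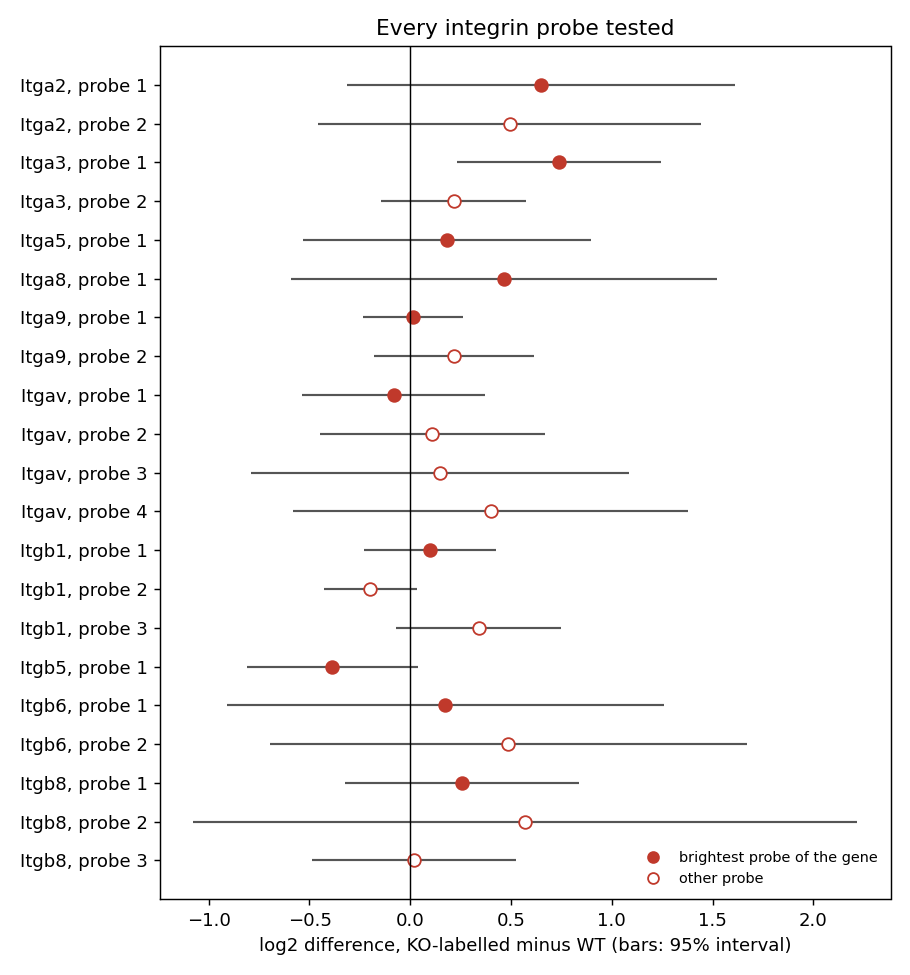
Log2 difference, KO-labelled minus WT, at each of the 21 integrin probes tested (x axis), with 95% intervals from limma; filled points are the brightest probe of a gene and open points its other probes. Only the interval of the brightest Itga3 probe, 0.23 to 1.25, leaves out 0, before any adjustment for the number of probes.

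The median difference of the 10 genes rested largely on 1 array. WT replicate 1 was the lowest array for 6 of the 10 genes and for 15 of the 21 probes, against 29.6% of all genes and 29.0% of all probes. The 15 include the Itgb8 probe that had passed the filter through the KO-labelled group alone. Without WT replicate 1 the median difference of the 10 genes was 0.02, against 0.18 with all arrays. The median was 0.28 when WT replicate 3 was left out, and 0.11 when KO-labelled replicate 2 was. Itga2, Itga3, Itga8, Itgb1 and Itgb8 had differences above 0, and Itgb5 one below 0, whichever array was left out. Itga5, Itga9, Itgav and Itgb6 took the other sign without at least 1 array. Without WT replicate 1 the unadjusted p-value (limma) fell for Itga3 (0.0119 to 0.00434), Itga5, Itga8, Itgav, Itgb5 (0.0684 to 0.0235) and Itgb6. It rose for Itga2, Itga9, Itgb1 and Itgb8, and none of the 10 passed after adjustment. WT replicate 1 also had the lowest value of Col17a1, whose difference was 1.07 without it.

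**Figure D3:**
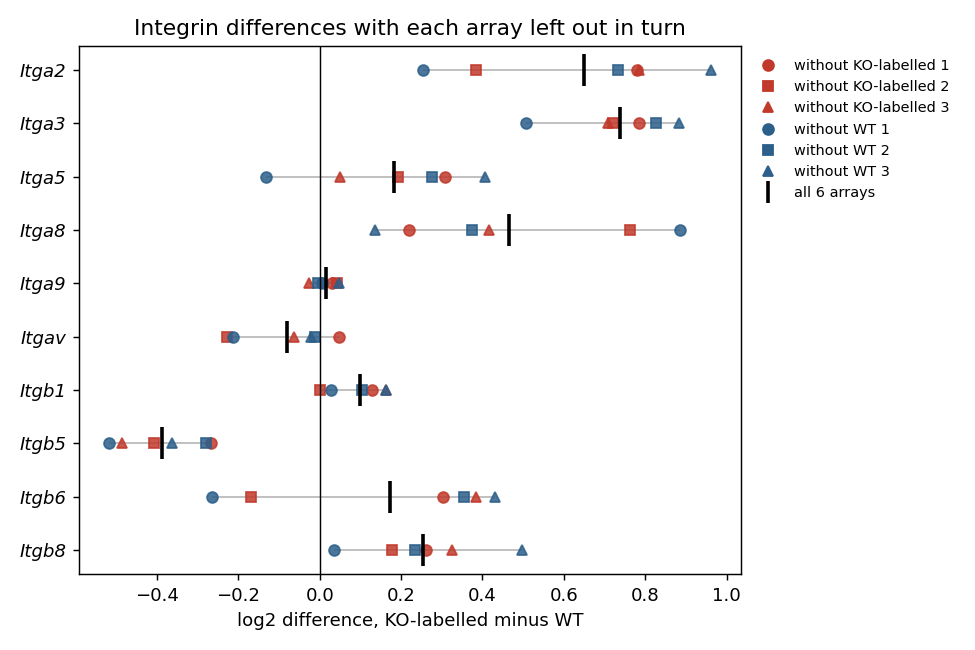
Log2 difference, KO-labelled minus WT, of each integrin gene (rows) with all 6 arrays (black bar) and with 1 array left out (coloured marker for the array removed). Removing WT replicate 1 (blue circles) gives the lowest value for Itga2, Itga3, Itga5, Itgb5, Itgb6 and Itgb8, and the highest for Itga8.

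The hemidesmosome chains are given beside these genes for comparison. Itgb4, which encodes the β4 chain, read 4.91, 4.81 and 4.63 in KO-labelled ureters, against 3.51, 4.03 and 4.34 in WT ureters. At this probe and at a second one, which differed by 0.52, the groups did not overlap, against 15.6% of all probes. The remaining Itgb4 probe was well above background on 4 of 6 arrays and had passed the filter through the KO-labelled group alone, so its difference is not used. Itga6, its α partner, read 4.81, 5.24 and 4.98 in KO-labelled ureters, against 4.34, 4.81 and 4.85 in WT ureters, a difference of 0.35 ± 0.19 (SE). The groups overlapped at this Itga6 probe. Its other probes differed by 0.36, 0.37, 0.20 and 0.08. At the first of these the groups did not overlap, with KO-labelled ureters higher, and at the rest they overlapped. Neither gene passed (limma, adjusted p = 0.454 for Itgb4 and 0.625 for Itga6). WT replicate 1 was the lowest array at the brightest probe of both, as it was for Itga3 and Itga2, and the difference between these chains and the 10 genes was not tested.

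Integrin chains of leukocytes are given as a list of their own. Of 7 such chains 6 lay below 0, with a median of -0.42, and none passed. Itgax, a chain of dendritic cells and macrophages, read 0.14, 0.93 and 1.54 in KO-labelled ureters, against 1.61, 1.96 and 1.96 in WT ureters. The Itgax groups did not overlap, where 8.13% of all genes lay wholly lower in KO-labelled ureters. The Itgax difference was -0.97 ± 0.35 (SE, limma, adjusted p = 0.502). Itgb2, the shared β chain of leukocyte integrins, differed by -0.50 ± 0.36 (SE) and Itgam, its neutrophil and macrophage partner, by 0.17 ± 0.14 (SE). Itgad, named after its values were seen, was well above background on 4 of 6 arrays and had passed the filter through the WT group alone. Its place among those below 0 is therefore not read, though the count and the median include it. The mean deviation of the macrophage markers was -0.35, -0.52 and 0.00 in KO-labelled ureters, against 0.13, 0.44 and 0.30 in WT ureters, and all 8 markers lay below 0. Their part in the leukocyte integrin values was not tested.

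Of the 7 remaining integrin chains 3 lay above 0 and 4 below, with a median of -0.17, and none passed. Itga11, a collagen receptor chain of fibroblasts, read 0.78, 0.53 and 0.56 in KO-labelled ureters, against 1.94, 0.59 and 1.30 in WT ureters. It was highest in WT replicate 1, the array in which most of the 10 genes were lowest, and differed by -0.65 ± 0.33 (SE). Itga4, a chain that binds VCAM1 and fibronectin, differed by -0.56 ± 0.24 (SE), and Itga2b, the platelet chain, by -0.26 ± 0.21 (SE).

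**Figure D4:**
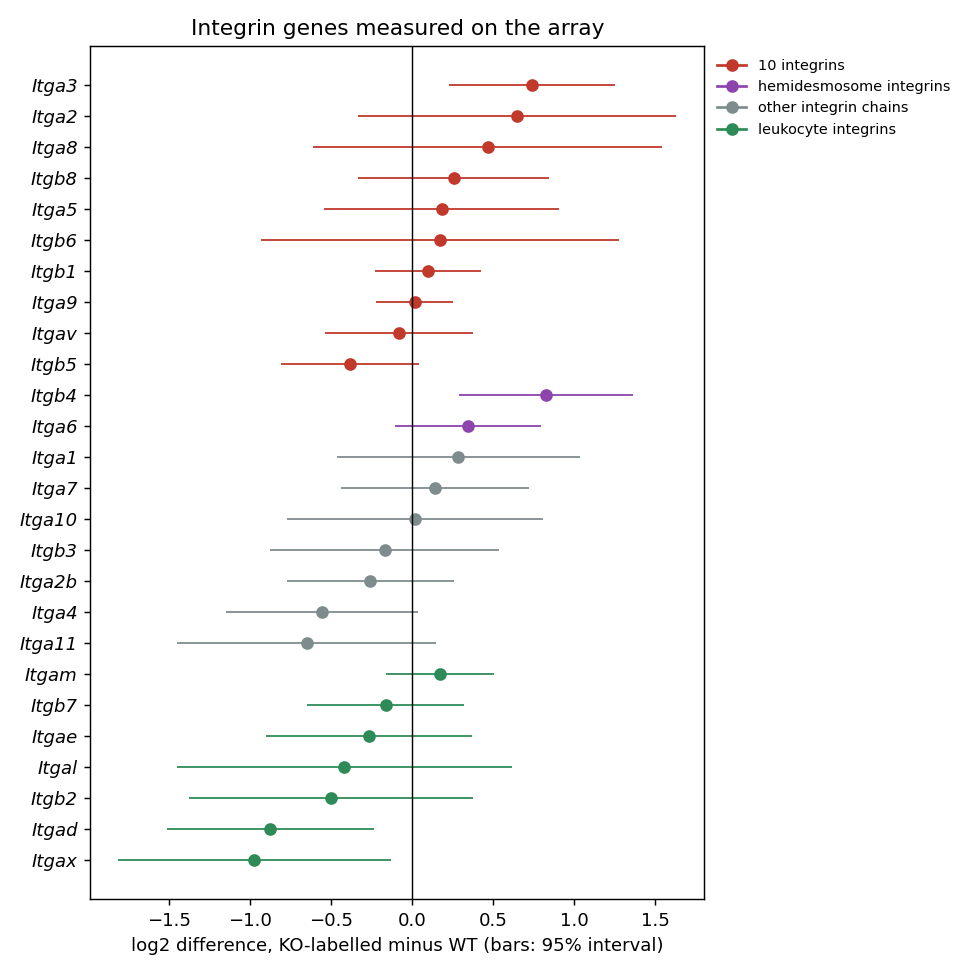
Log2 difference, KO-labelled minus WT, with 95% intervals from limma for the integrin genes of the 4 lists, grouped by colour and ordered within each group. The 10 integrins run from -0.39 for Itgb5 to 0.74 for Itga3, the hemidesmosome chains lie at 0.35 and 0.82, and 6 of the 7 leukocyte chains lie below 0. Itgad, among those below 0, had passed the filter through the WT group alone and is not read.

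Ligands of these receptors showed no common direction. Of 23 matrix ligands 22 were tested, 11 above and 11 below 0, with a median near 0 (-0.001). None passed, and 3 had an unadjusted p under 0.05 where 9.06% of all genes did. Lama5, the α chain of laminin-511, read 4.26, 4.20 and 3.78 in KO-labelled ureters, against 3.43, 3.36 and 3.77 in WT ureters. KO-labelled replicate 3 lay just above WT replicate 3, so the groups did not overlap, where 7.28% of all genes lay wholly higher in KO-labelled ureters. The Lama5 difference was 0.56 ± 0.18 (SE, limma, adjusted p = 0.477). Lamb3, the β chain of laminin-332, read 1.13, 1.67 and 0.92 in KO-labelled ureters, against 0.32, 0.53 and 0.98 in WT ureters, a difference of 0.63 ± 0.25 (SE). Lama3, the α chain of laminin-332, named after its value was seen, differed by 0.65 ± 0.55 (SE), with overlapping groups. Vcam1, an adhesion ligand of α4β1 and α9β1, was the 1 ligand of 22 whose KO-labelled values all lay below WT, where 8.13% of all genes did so, with a difference of -0.30 ± 0.12 (SE).

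The list of latent TGF-β genes holds the TGF-β ligands and the proteins that bind or tether their latent forms, and it had differences of both signs. Of 7 genes 3 lay above 0 and 4 below, with a median of -0.08, and none passed. Nrros, which tethers latent TGF-β on macrophages, differed by -0.55 ± 0.24 (SE). Ltbp1, a latent TGF-β binding protein of the matrix, differed by 0.26 ± 0.17 (SE) and Tgfb2 by 0.46 ± 0.33 (SE). In each of the 3 the groups overlapped.

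Inside the cell, 32 activators and adaptors that join integrin tails to actin were tested, 18 above and 14 below 0, with a median of 0.08. None passed, and 2 had an unadjusted p under 0.05, both above 0, where 9.06% of all genes did. Of the 32, 6 did not overlap between groups and lay above 0, where 7.28% of all genes did so in that direction. Arhgef7, a Rac exchange factor of focal contacts, read 1.47, 1.62 and 1.50 in KO-labelled ureters, against 1.02, 1.26 and 1.38 in WT ureters. Actn4, an actin crosslinker that binds β tails, differed by 0.26 ± 0.11 (SE), and Tns4, an epithelial tensin, by 0.50 ± 0.21 (SE). WT replicate 1 was the lowest array for 13 of the 32. Among 3 inhibitors of integrin activation, Dok1 differed by -0.34 ± 0.24 (SE), Itgb1bp1 by -0.04 ± 0.11 (SE) and Sharpin by 0.01 ± 0.12 (SE).

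Lateral partners sit beside integrins in the membrane. Cd9, a tetraspanin that associates with β1 integrins, read 3.89, 3.90 and 3.68 in KO-labelled ureters, against 3.28, 3.23 and 3.41 in WT ureters. The groups were separated by more than the spread within either, and the difference of 0.52 ± 0.11 (SE) did not pass (limma, unadjusted p = 0.00368, adjusted p = 0.418). Of the 8 partners 2 did not overlap between groups, both higher in KO-labelled ureters, where 7.28% of all genes did so. The other was Cd82, named after its values were seen, which differed by 0.08 ± 0.09 (SE). Cd151, the tetraspanin partner of α3β1, named for that role after its value was seen, differed by -0.11 ± 0.11 (SE). Cd63 and Bsg differed by -0.17 ± 0.14 and 0.18 ± 0.15 (SE), and of the 8 partners 3 lay above 0.

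Marker lists of the cells in the tissue followed the 10 genes in different ways, and their part in the integrin values was not tested. A list value is the mean deviation of its genes from their own average over the 6 arrays. The 10 integrins had 0.01, 0.23 and 0.08 in KO-labelled ureters, against -0.41, -0.01 and 0.10 in WT ureters. The 6 basal urothelium markers had -0.05, 0.54 and 0.07 in KO-labelled ureters, against -0.74, -0.04 and 0.22 in WT ureters. Both sets were highest in KO-labelled replicate 2 and lowest in WT replicate 1. Superficial urothelium markers followed another order, with 0.89, 0.47 and -0.06 in KO-labelled ureters, against 0.10, -0.96 and -0.44 in WT ureters, so that WT replicate 1 was the highest WT array there. The smooth muscle markers had 0.64, 0.42 and -0.21 in KO-labelled ureters, against 0.15, -0.85 and -0.15 in WT ureters. All 7 superficial urothelium and all 10 smooth muscle markers had differences above 0, where 49.8% of all genes did. Of the 6 basal markers 4 lay above 0 and 2 below, and no gene of these 3 lists passed.

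Neutrophil markers had -0.01, 0.67 and 0.76 in KO-labelled ureters, against -1.31, 0.26 and -0.39 in WT ureters, again lowest in WT replicate 1. Ngp of that list was well above background on 3 of 6 arrays and had passed the filter through the KO-labelled group. Without Ngp the list had -0.26, 0.37 and 0.77 in KO-labelled ureters, against -1.15, 0.46 and -0.19 in WT ureters. Platelet markers were lowest in the same array, at -0.79, and Gp5 of that list was not tested. Fibroblast markers spanned only -0.11 to 0.10 in KO-labelled ureters and -0.18 to 0.20 in WT ureters, with their highest value in WT replicate 1. Endothelial markers were between -0.12 and 0.39 in KO-labelled ureters and between -0.19 and 0.08 in WT ureters. Mesothelial markers had 0.78, 0.16 and 0.30 in KO-labelled ureters, against 0.23, -0.71 and -0.76 in WT ureters. Gpm6a of that list was well above background on 4 of 6 arrays and had passed the filter through the KO-labelled group. Without Gpm6a the list had 0.66, 0.18 and 0.28 in KO-labelled ureters, against 0.12, -0.64 and -0.61 in WT ureters. The T and NK cell markers, without Cd8a and Ncr1, which were not tested, ran from -0.56 to 0.50 in KO-labelled ureters and from -0.17 to 0.29 in WT ureters. Klrb1c of that list was well above background on 5 of 6 arrays and had passed the filter through the WT group. Without Klrb1c the list ran from -0.49 to 0.51 in KO-labelled ureters and from -0.18 to 0.13 in WT ureters. Adipocyte markers ran from -0.19 to 0.24 in KO-labelled ureters and from -0.34 to 0.40 in WT ureters, and Schwann cell markers from -0.09 to 0.37 in KO-labelled ureters and from -0.31 to 0.00 in WT ureters.

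**Figure D5:**
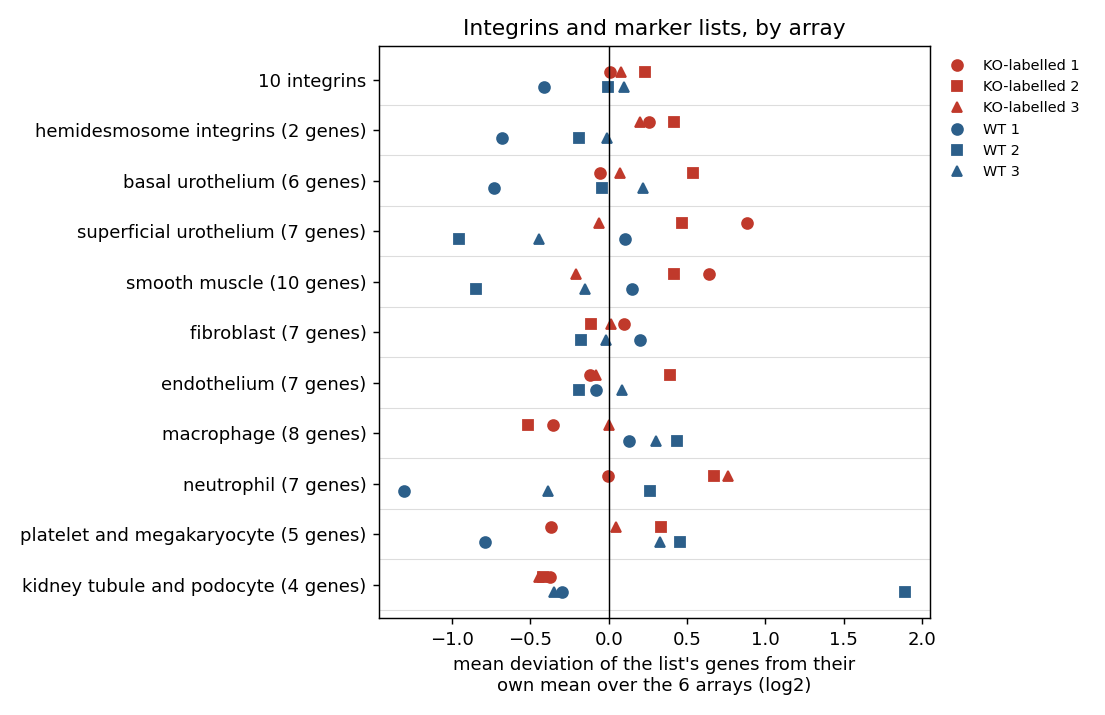
Mean log2 deviation of each gene list from its average over the 6 arrays (x axis), for KO-labelled arrays (red, upper points of each row) and WT arrays (blue, lower points), with marker shapes for the replicate number. WT replicate 1 (blue circles) lies lowest for the 10 integrins (-0.41), the hemidesmosome integrins (-0.68), the basal urothelium (-0.74), neutrophil (-1.31) and platelet (-0.79) lists, and WT replicate 2 stands apart for the kidney list at 1.89.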

How the data were processed

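The authors deposited 1 Agilent scanner table per mouse. Per the file headers, the deposited intensity values came from Agilent Feature Extraction 12.0.3.1, with background subtracted and arrays detrended but not normalised against each other. All 6 arrays lay on 1 slide with 1 scan time. For any scaling between arrays by the authors, the method was not stated in the labels or headers.

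Outlier spots were set to missing, which left every integrin probe complete, spots of a probe were averaged, and log2 processed signals were centred on each array's 75th percentile. A probe was kept (35069) if all arrays of either group had it well above background. The kept probe with the highest mean stood for its gene (22260 genes). KO-labelled and WT ureters were compared with limma 3.58.1 (R 4.3.3), and p-values were adjusted by Benjamini-Hochberg over all genes, or over all probes for the other probes. Saturated spots numbered 0. Precision is limited by there being 6 arrays. Recovery of known changes was tested on simulated data.

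The members and lists were chosen with earlier results of these data known. Text names all members with their probes, Itga6, Itgb4, Col17a1, and the 3 genes of each pathway list with the lowest unadjusted p among those well above background on all arrays. Cyr61 and Ctgf were found as Ccn1 and Ccn2. Alternatives covered background, normalisation, filter, probe choice, variance trend, array weights, replicate block and arrays left out. Labels do not say whether mice shared a litter or day.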

Additional observations from a re-analysis of the deposited data

How the results depend on the processing

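None of the 10 integrin genes passed the threshold under any of 15 alternatives. Of 150 integrin differences under these alternatives, 136 had the sign of the reported value and 14 the other. Array weights, whose estimation stopped before convergence and which differed 30.2-fold between arrays, called 498 genes and 2544 probes, moved the integrin median to -0.10, and turned Itga5 to -0.30, Itga9 to -0.053, Itgb1 to -0.012, Itgb6 to -0.30 and Itgb8 to -0.14. They moved Itga8 to 1.15, Itga2 to 0.08, Itga3 to 0.45 and Itgav to -0.26. Normexp moved the median to 0.10, Itga8 to 0.16, Itgb6 to 0.11 and Itgb8 to 0.10. The mean of a gene's probes turned Itgav to 0.14 and moved Itga3 to 0.48, Itga9 to 0.12 and Itgb6 to 0.33. List values over genes well above background on all arrays were added after seeing the data. With WT replicate 2 and KO replicate 3 both left out, Itga9 was -0.047 and Itgav 0.007. Leaving out each array gave 0 to 1 genes and 0 to 1 probes, integrin medians of 0.02 to 0.28, and Col17a1 differences of 1.07 to 2.04. Values with an array left out were -0.133 to 0.406 for Itga5, -0.027 to 0.047 for Itga9, -0.229 to 0.048 for Itgav and -0.265 to 0.432 for Itgb6. The other sign came for Itgav without KO replicate 1, for Itgb6 without KO replicate 2 (-0.169) or WT replicate 1, for Itga9 without KO replicate 3 or WT replicate 2 (-0.005), and for Itga5 without WT replicate 1. The cause of these changes was not tested. The replicate block called 1 gene and 1 probe and no integrin gene. Same-numbered arrays had correlations of their deviations of 0.53, -0.15 and -0.03, so the numbers were not treated as pairs.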
